A study of Sus scrofa with 19 samples.

Results

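FADS1 and FADS2 are neighbouring genes that encode the front-end desaturases of polyunsaturated fatty acid synthesis. They were found as the array's probe sets whose only gene symbol is FADS1 or FADS2. This gave 3 of the 27558 probe sets and 2 of the 12218 genes that have a probe set with 1 symbol. The symbol FADS1 belonged to probe sets 15254462 and 15261508, and FADS2 to probe set 15254451. Both FADS1 probe sets held the same value in all 19 arrays and were counted as 1 measurement.

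FADS2, the delta-6 desaturase, adds a further double bond to linoleic and alpha-linolenic acid in the first step of the pathway. An elongase then lengthens the product, and FADS1, the delta-5 desaturase, adds the double bond that yields arachidonic acid in the omega-6 series and eicosapentaenoic acid in the omega-3 series. The adrenal gland stores cholesterol esterified with long-chain polyunsaturated fatty acids for steroid synthesis, and in liver the transcription of desaturase genes is known to respond to dietary fatty acids and to the lipid regulator SREBP. Fish oil carries eicosapentaenoic and docosahexaenoic acid, the long-chain products of this pathway, and lipopolysaccharide (LPS) is a bacterial cell wall component that provokes an inflammatory response.

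Whole adrenal glands of 19 male piglets, 1 from each sow, were profiled on 1 array each. The sows ate a control diet, a diet with fish oil or a diet with microalgae from gestation day 75, and were given LPS or saline on gestation day 112. Every piglet, in all 6 groups, was itself given LPS at 28 days of age, 7 days after weaning at 21 days, and killed 2 hours later, so no unchallenged piglet serves as a baseline. After maternal saline there were 3 control, 4 fish oil and 3 microalgae piglets, and after maternal LPS there were 3, 4 and 2. The labels do not give the fatty acid content of the diets, the dose of LPS or the strain of pig. The comparison asks whether maternal diet and late-gestation challenge went with different desaturase expression in the offspring's adrenal gland.

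Values were log2 signals, so a difference of 1 is a doubling, and a log2 level says nothing about how one gene compares with another gene. The arrays had similar medians, from 4.38 to 4.52, but the interquartile range of their values ran from 2.27 to 2.65, with the 2 narrowest arrays those of piglet 24 (fish oil, maternal LPS) and piglet 6 (control, maternal LPS). For some of the results that rest on these arrays, values without them are given as well. The steroid enzymes CYP17A1 (12.36 ± 0.194, SD, n = 19) and CYP21A2 (11.22 ± 0.227) marked adrenal cortex, and CHGB (10.80 ± 0.567), of chromaffin granules, marked medulla. These are bright members of their marker lists. Other tested markers ran down to 3.26 for SULT2A1 of cortex and 4.01 for PHOX2A of medulla. Because whole glands were measured, fewer cells of a type and less RNA per cell cannot be told apart.

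FADS1 varied more between piglets than FADS2. Its log2 signal averaged 7.79 ± 0.438 (SD, n = 19) and ran from 6.93 to 8.62, while FADS2 averaged 9.70 ± 0.231 and ran from 9.29 to 10.05. Both genes were above the filter on dim probe sets, a mean log2 signal of 3.23, in every piglet.

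In control piglets FADS1 was at 7.58, 7.79 and 8.14 after maternal saline (piglets 8, 14 and 21) and at 6.93, 8.10 and 7.62 after maternal LPS (piglets 6, 16 and 17). The groups overlapped, and only piglet 6 lay below all of the saline piglets of its diet. In fish oil piglets FADS1 was at 7.56, 8.17, 7.42 and 8.19 after saline (piglets 9, 11, 13 and 18) and at 7.87, 7.72, 7.28 and 6.98 after LPS (piglets 10, 19, 20 and 24). These groups overlapped too, with 2 high and 2 low piglets after saline and piglets 20 and 24 lowest after LPS. In microalgae piglets FADS1 was at 8.62, 8.04 and 8.28 after saline (piglets 12, 15 and 22) and at 7.77 and 7.89 after LPS (piglets 7 and 23). Here both LPS piglets lay below all 3 saline piglets, as was the case for 14.7% of the probe sets tested, and piglet 12 had the highest FADS1 of all arrays.

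FADS2 in control piglets was at 9.53, 9.40 and 10.05 after saline and at 9.33, 9.96 and 9.29 after LPS. The control diet thus held both the highest and the lowest FADS2 values of the study, in piglets 21 and 17. In fish oil piglets FADS2 was at 9.93, 9.92, 9.74 and 9.82 after saline and at 9.81, 9.72, 9.74 and 9.58 after LPS. These piglets lay close together, with an SD of 0.0919 after saline and 0.0958 after LPS. In microalgae piglets FADS2 was at 9.91, 9.56 and 9.90 after saline and at 9.40 and 9.77 after LPS, and the groups overlapped.

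**Figure D1:**
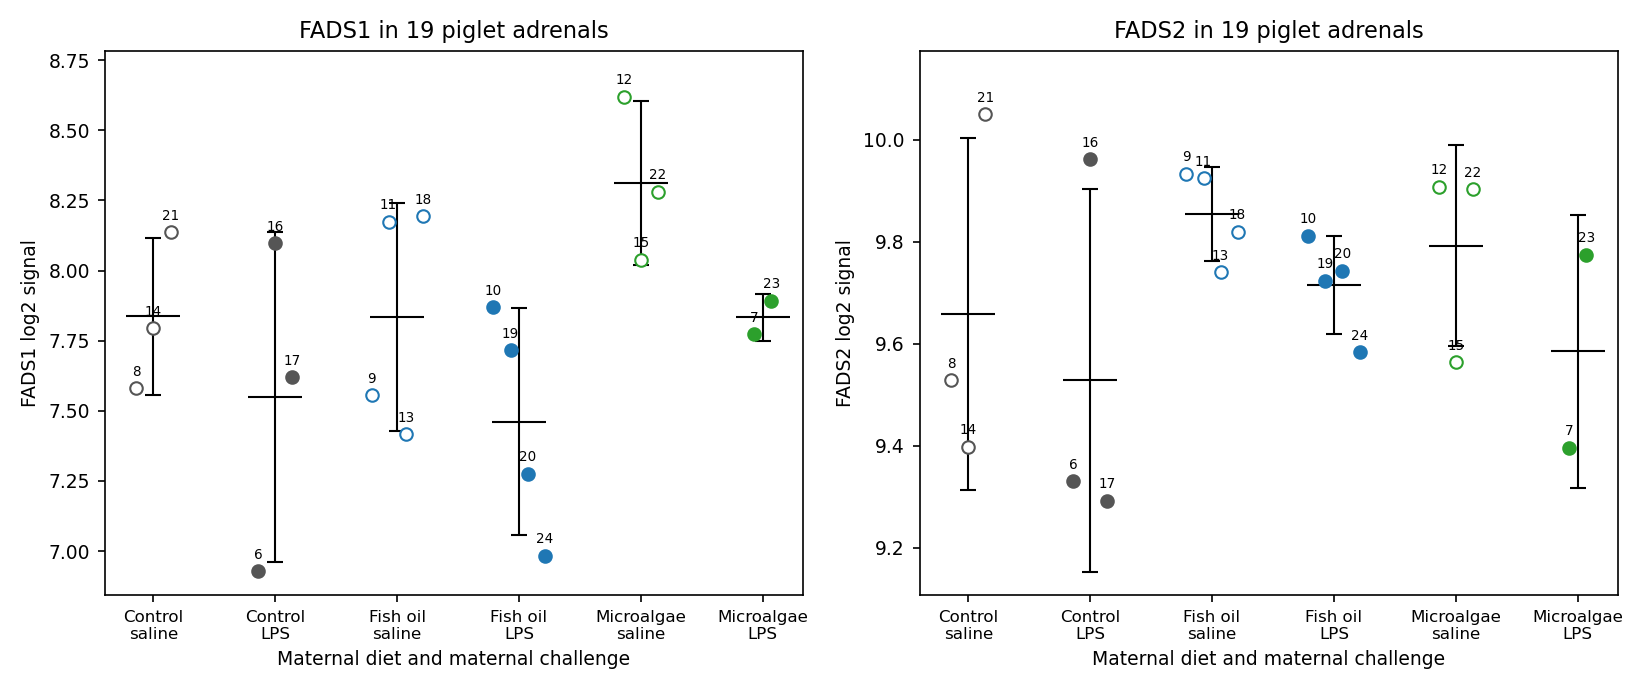
Log2 signal of FADS1 (left) and FADS2 (right) in each piglet, by maternal diet and maternal challenge. Each point is 1 piglet with its number, open after maternal saline and filled after maternal LPS, the horizontal line is the group mean and the bars are 1 SD; FADS1 is apart between challenges in microalgae piglets only, and FADS2 is tightly grouped in fish oil piglets. The axes do not start at 0.

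By group mean, FADS1 was highest in microalgae saline piglets (8.31 ± 0.292), followed by control saline (7.84 ± 0.281), fish oil saline (7.83 ± 0.407), microalgae LPS (7.83 ± 0.0842), control LPS (7.55 ± 0.588) and fish oil LPS piglets (7.46 ± 0.405). No neighbouring pair in that order had an unadjusted limma p under 0.05, and the largest step, between the first pair, was 0.48 ± 0.297 (SE). The ends of the order, microalgae saline and fish oil LPS, were 0.85 ± 0.277 apart (SE), with an unadjusted limma p of 0.00672 and an adjusted p of 0.877 over the 20668 probe sets tested, of which 4.8% had an unadjusted p under 0.05 between these groups. For FADS2 the order was fish oil saline (9.85 ± 0.0919), microalgae saline (9.79 ± 0.197), fish oil LPS (9.72 ± 0.0958), control saline (9.66 ± 0.345), microalgae LPS (9.59 ± 0.267) and control LPS (9.53 ± 0.376). Its whole range of group means was narrower than the SD of either control group.

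After maternal LPS, the FADS1 signal was lower on average in each of the 3 diets, and the difference did not pass the test across the array. It was -0.38 ± 0.171 (SE; 9 LPS against 10 saline piglets, 95% interval -0.74 to -0.02), a ratio of 0.768. The unadjusted limma p was 0.0395 and the adjusted p 0.697, and an exact permutation test on FADS1 alone, two-sided with challenge permuted within diets, gave p = 0.0371. Among all probe sets tested, 6.97% (1440) had an unadjusted limma p under 0.05 in this comparison, 3.59% of all as lower signals. Both FADS1 probe sets, which hold the same values, are among these 1440. Only 0.00968% (2 probe sets, both without a single gene symbol) passed the adjusted threshold. Of the 9 LPS piglets, 7 lay below the saline mean of their diet.

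The size of this difference changed when piglets were left out or a covariate was added. By diet it was -0.29 in control, -0.37 in fish oil and -0.48 in microalgae piglets, and the control value turned to 0.022 without piglet 6 and was -0.56 without piglet 16. The fish oil value was -0.21 without piglet 24, and the microalgae value was -0.33 without piglet 12. Without piglets 6 and 24 the difference over the diets was -0.22 (an unadjusted limma p of 0.151), and with each array's interquartile range as a covariate it was also -0.22 (a p of 0.143). The interquartile range was 2.44 to 2.65 in saline piglets and 2.27 to 2.65 in LPS piglets, and its part in the result was not tested further. With a score of 6 medulla markers as a covariate the difference was -0.42. All 5 tested cortex markers were lower after maternal LPS (median -0.06), with mean relative levels of -0.27 to 0.11 in LPS and -0.33 to 0.19 in saline piglets, and their part in the FADS1 value was not tested.

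FADS2 was at -0.16 ± 0.114 after maternal LPS (SE; 95% interval -0.40 to 0.08), with an unadjusted limma p of 0.181, an adjusted p of 0.752 and an exact permutation p of 0.178. In 8 of 9 LPS piglets it lay below the saline mean of their diet, and the diets gave -0.13, -0.14 and -0.21 for control, fish oil and microalgae. Leaving out 1 piglet moved the value over the diets to -0.09 (without piglet 21) or -0.23 (without piglet 16, an unadjusted limma p of 0.0416). It moved the control value to 0.065 (without piglet 21) or -0.35 (without piglet 16) and the microalgae value to -0.018 (without piglet 7) or -0.40 (without piglet 23). The maternal LPS difference was not shown to depend on diet for either gene. For FADS1 the LPS difference in fish oil minus that in control was -0.09 ± 0.392 (SE), in microalgae minus that in control -0.19 ± 0.445 and in fish oil minus that in microalgae 0.11 ± 0.419, with unadjusted limma p-values of 0.83, 0.673 and 0.804. Of all probe sets, 2.64%, 5.41% and 7.23% had an unadjusted p under 0.05 there. The same terms for FADS2 were -0.01 ± 0.261, -0.08 ± 0.296 and 0.07 ± 0.279.

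Between diets, FADS1 and FADS2 did not follow one order. FADS1 in microalgae piglets was 0.38 ± 0.222 (SE) above control, with a 95% interval of -0.09 to 0.85 and an exact permutation p of 0.145. This was 0.22 without piglet 6 and 0.52 without piglet 16, the latter with an unadjusted limma p of 0.0292. In fish oil piglets it was -0.04 ± 0.196 from control (exact permutation p = 0.837), and the sign of this value changed when any of 5 single piglets was left out. Fish oil minus microalgae was -0.42 ± 0.21 (95% interval -0.87 to 0.02, an unadjusted limma p of 0.0581 and an exact permutation p of 0.0705). These 3 comparisons share piglets.

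FADS2 was 0.19 ± 0.131 above control in fish oil piglets (95% interval -0.08 to 0.47, exact permutation p = 0.149) and 0.09 ± 0.148 above it in microalgae piglets (exact p = 0.61). Fish oil minus microalgae was 0.10 ± 0.14 (95% interval -0.20 to 0.39, exact permutation p = 0.29). Single piglets moved these FADS2 values widely: fish oil minus control ran from 0.13 (without piglet 14) to 0.30 (without piglet 16, an unadjusted limma p of 0.0264), microalgae minus control from 0.00044 (without piglet 23) to 0.20 (without piglet 16) and fish oil minus microalgae from 0.0020 (without piglet 7) to 0.19 (without piglet 23). With both supplemented diets averaged against control, FADS1 was at 0.17 ± 0.182 and FADS2 at 0.14 ± 0.121. Leaving out 1 piglet moved these to 0.013 (without piglet 6) to 0.30 (without piglet 16) for FADS1 and to 0.078 (without piglet 14) to 0.25 (without piglet 16, an unadjusted limma p of 0.0434) for FADS2. Adjusted limma p-values in all diet comparisons were near 1 for both genes, and no probe set passed there (0%); unadjusted limma p-values under 0.05 were found for 2.69% of probe sets in fish oil minus control, 1.65% in microalgae minus control, 2.85% in fish oil minus microalgae and 1.9% with both diets averaged.

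**Figure D2:**
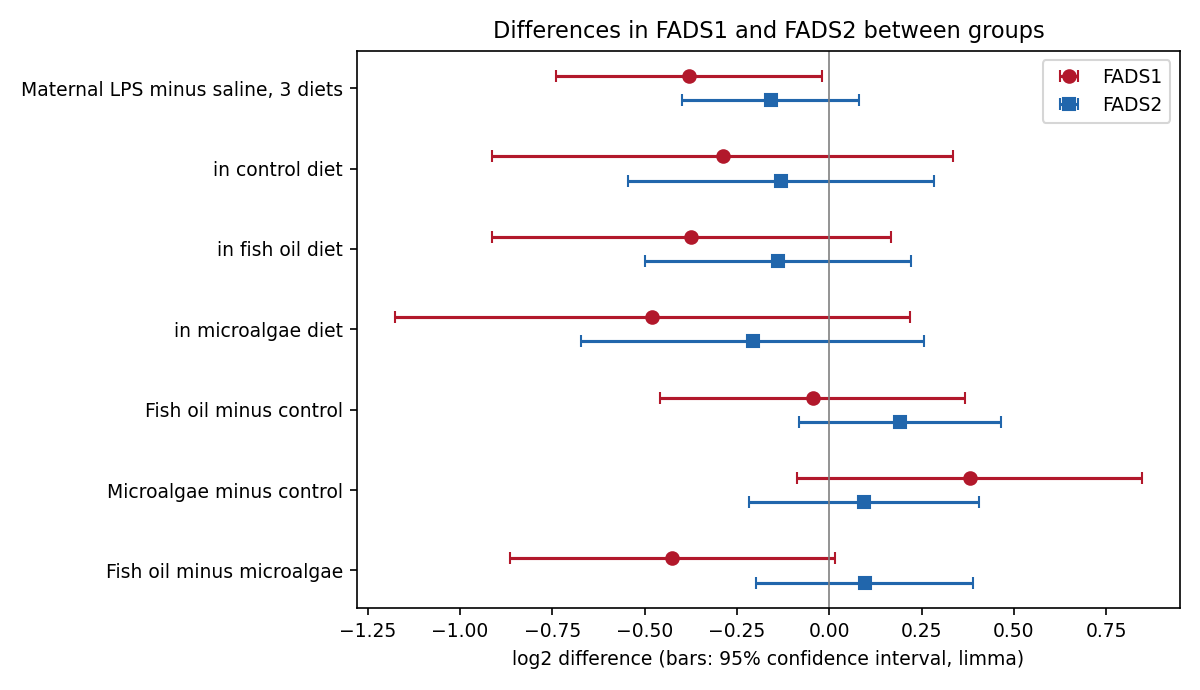
Log2 difference of FADS1 (red circles) and FADS2 (blue squares) in the maternal LPS comparison, over all diets and within each, and in the 3 diet comparisons, with 95% confidence intervals from limma. The FADS1 interval for maternal LPS over the 3 diets, -0.74 to -0.02, is the only one that does not reach 0, before adjustment over probe sets.

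Fish oil and microalgae piglets had different mean distances between the 2 desaturase signals, a result that depended on single piglets. Within each array the FADS2 log2 signal was subtracted from that of FADS1; the sign and size of this distance depend on the probes, and only its differences between groups are read. After maternal saline it was -2.38, -1.75, -2.32 and -1.63 in fish oil piglets and -1.29, -1.53 and -1.62 in microalgae piglets. After maternal LPS it was -1.94, -2.01, -2.47 and -2.60 in fish oil and -1.62 and -1.88 in microalgae piglets. Piglet 18 (fish oil) and piglet 22 (microalgae), both after saline, were almost level.

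The diets differed by -0.52 in this distance, -0.54 after saline and -0.50 after LPS, with an exact two-sided permutation p of 0.00952 (8 against 5 piglets). After Benjamini-Hochberg adjustment over the 4 main comparisons of the distance it was 0.0381. That adjustment leaves out the exact tests of FADS1 and FADS2 by themselves in the same comparisons, and a wider one was not run. FADS1 was lower relative to FADS2 in the fish oil piglets. The adjusted call held with the interquartile range as a covariate (-0.58, exact p = 0.00571, adjusted 0.0229) and after quantile normalization (-0.54, exact p = 0.0114, adjusted 0.0457). It was lost without piglets 6 and 24 (-0.46, exact p = 0.0229, adjusted 0.0914). Piglet 6 is a control piglet, so this is the same case as leaving out piglet 24 alone. Counting the case of piglet 24, the call was lost in 12 of 13 cases when each fish oil or microalgae piglet was left out in turn. There the difference ran from -0.59 to -0.46 and the exact p from 0.0114 to 0.0457 (without piglet 7). The adjusted p ran from 0.0457 (without piglet 23, the case that passed) to 0.146. Each such test has fewer arrangements than the 525 of the full test, so its p can rise where the difference grows. Without piglet 18, for example, the difference was -0.59 and the adjusted exact p 0.0533. The other 3 comparisons of the distance did not pass. Microalgae minus control was 0.29 (exact p = 0.08, adjusted 0.12), fish oil minus control was -0.24 (exact p = 0.189) and maternal LPS minus saline was -0.22 (exact p = 0.0896, adjusted 0.12).

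Several lists of cell type markers leaned to one side between the fish oil and microalgae piglets. All 7 tested fibroblast and capsule markers were lower in fish oil than in microalgae piglets (median -0.63), all 7 endothelial markers were higher (0.27) and 8 of 9 macrophage and monocyte markers were higher (0.26), against a median of -0.004 over all probe sets. The mean fibroblast marker level, relative to each gene's mean over all arrays, ran from -1.25 to 0.42 in fish oil and from -0.09 to 0.76 in microalgae piglets. The endothelial level ran from 0.02 to 0.27 and from -0.39 to 0.06. Medulla markers were lower in 5 of 6 cases (median -0.31), cortex markers higher in 4 of 5 (0.11) and cholesterol synthesis and uptake genes lower in 9 of 11 (-0.20). Lymphocyte markers were higher in 5 of 9 cases (0.004), adipocyte markers lower in 3 of 4 (-0.15) and liver or kidney markers higher in 2 of 3 (0.06). An unadjusted limma p under 0.05 was found here for 1 fibroblast, 2 endothelial and 2 macrophage and monocyte markers, against 2.85% of all probe sets. In fish oil minus control all 7 fibroblast and capsule markers were lower as well (median -0.84). None of these genes passed at the adjusted threshold, and their part in the FADS1 to FADS2 distance was not tested.

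**Figure D3:**
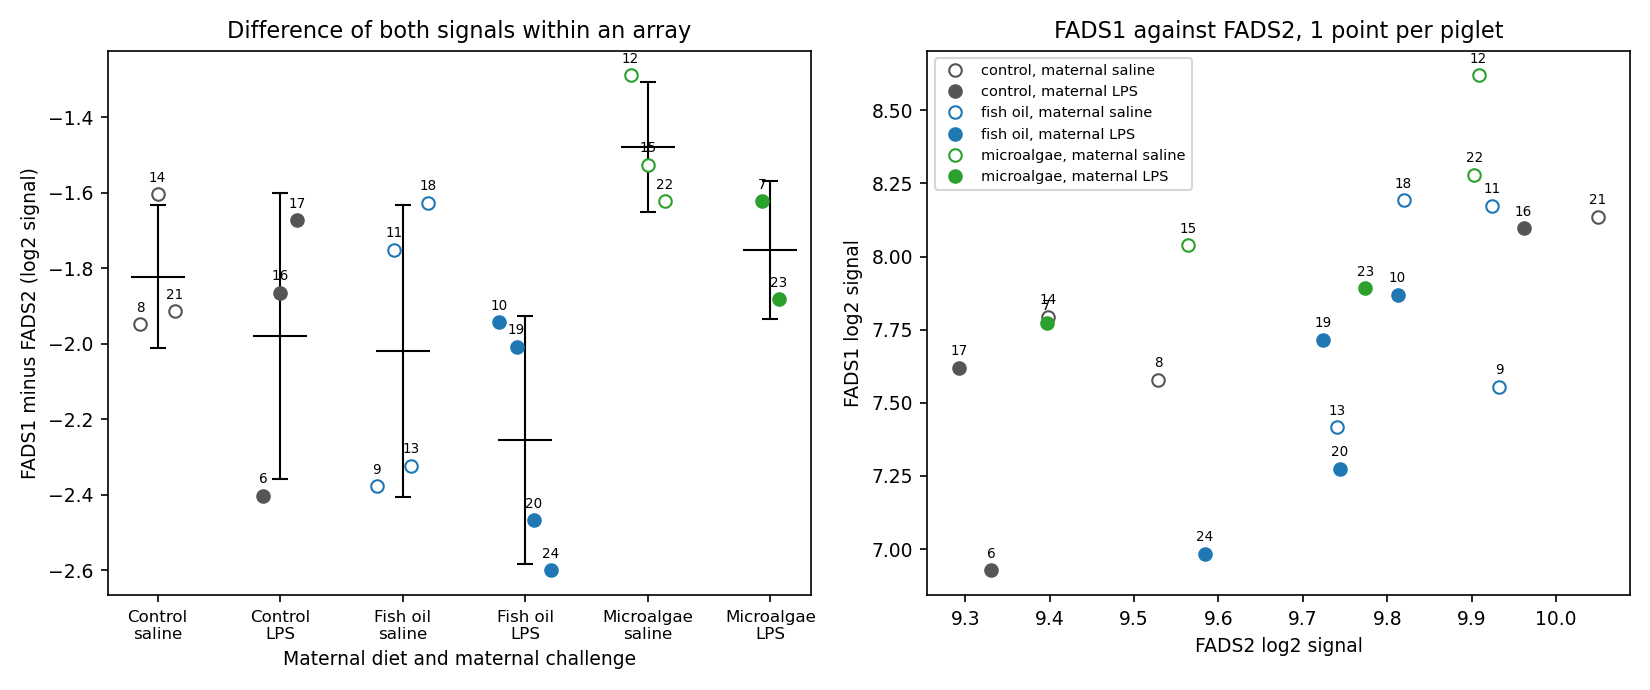
Left, FADS1 minus FADS2 log2 signal within each array, by group, with group means and 1 SD. Right, FADS1 against FADS2, 1 point per piglet. Fish oil groups (blue) have lower means in the left panel than microalgae groups (green) of the same challenge. Piglets 6 and 24 have the lowest FADS1.

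Across the 19 piglets, FADS1 and FADS2 were positively related, with Pearson r = 0.558 (permutation p = 0.0143, 0.0284 adjusted over 11 relations computed) and Spearman rho = 0.575 (permutation p = 0.0116, adjusted 0.0435). After group means were subtracted r was 0.628 (permutation p = 0.0107). Without piglets 6 and 12, the farthest from the FADS1 median, r was 0.419 (permutation p = 0.0932), and without piglets 6 and 24 it was 0.447 (permutation p = 0.0725). The relation did not pass without those piglets, whose removal also narrows the range of FADS1. Within saline piglets r was 0.431 and within LPS piglets 0.524. Both genes also went with the interquartile range of the array, FADS1 at r = 0.592 (permutation p = 0.0079) and FADS2 at r = 0.539 (permutation p = 0.0155). Without piglets 6 and 24 these were 0.206 and 0.515, and the part of the array's range in the relation between the genes was not tested.

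FADS1 went with the mean level of cholesterol synthesis and uptake genes (r = 0.635, permutation p = 0.00386, adjusted 0.0142) and of saturated and monounsaturated fatty acid synthesis genes (r = 0.646, permutation p = 0.00303, adjusted 0.0142). After group means were subtracted, r with the cholesterol genes was 0.569 and did not pass (permutation p = 0.0653, adjusted 0.12). With the fatty acid synthesis genes it was then 0.607 (permutation p = 0.0164, adjusted 0.0361). Without piglets 6 and 12, and so over a narrower range of FADS1, r was 0.351 and 0.366 (permutation p = 0.167 and 0.148). Without piglets 6 and 24 it was 0.578 and 0.529 (permutation p = 0.0152 and 0.0288). For FADS2 the same values were 0.249 (permutation p = 0.309) and 0.392 (permutation p = 0.0968). Both genes went with the mean of 5 adrenal cortex markers. For FADS1 r was 0.531 (permutation p = 0.0208, adjusted 0.0327), 0.637 after group means were subtracted (permutation p = 0.00644) and 0.307 without piglets 6 and 12 (permutation p = 0.23). For FADS2 r was 0.641 (permutation p = 0.00344, adjusted 0.0142), 0.538 after group means were subtracted (permutation p = 0.152) and 0.537 without piglets 6 and 17, the farthest from its median (permutation p = 0.0255). Without piglets 6 and 24, r with the cortex markers was 0.478 for FADS1 (permutation p = 0.0526) and 0.574 for FADS2 (permutation p = 0.0157). With the medulla markers r was -0.03 for FADS1 (permutation p = 0.915) and -0.29 for FADS2 (permutation p = 0.229). For FADS2 this was -0.81 within the 9 LPS piglets and 0.21 within the 10 saline piglets, a difference that was not tested.

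The genes whose signals were most like each desaturase over the 19 arrays were not the other desaturase. Of 9991 genes compared by Pearson r, as a description, FADS1 was most like BCL6 (0.825), a transcriptional repressor, COL15A1 (0.823), a basement membrane collagen, MFSD6 (0.815), CSTF2 (0.802), an RNA 3′ end processing factor, and GNA13 (0.795), a G protein subunit. It was least like ATG4D (-0.81), ARL6IP4 (-0.79) and IGHMBP2 (-0.77). FADS2 was 585th in that order. FADS2 was most like the mitochondrial enzymes GPD2 (0.801), GLS2 (0.792), BCAT2 (0.791) and HADH (0.781), which act on glycerol phosphate, glutamine, branched-chain amino acids and fatty acyl chains, and like NKAIN1 (0.780). It was least like ACVRL1 (-0.77), STMND1 (-0.76) and A1BG (-0.76), and FADS1 was 369th in its order. Without piglets 6 and 24, r was 0.667 for BCL6 with FADS1 and 0.791 for GPD2 with FADS2.

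Of 15 other genes listed for polyunsaturated fatty acid synthesis, 10 were found under their own symbol and 9 were tested. HACD4 was below the filter, and ELOVL5, HACD2, HSD17B12 and HSD17B4 were among those not analysed here. After maternal LPS 4 were higher and 5 lower (median -0.03, against 0.007 over all probe sets), and none had an unadjusted limma p under 0.05. TECR, the reductase of the elongation cycle, was at -0.29 ± 0.184 (SE), SCP2, a peroxisomal lipid carrier, at -0.21 ± 0.134, and ELOVL2, an elongase of long polyunsaturated chains, at 0.14 ± 0.108. The dehydratases HACD1 and HACD3 were at -0.03 ± 0.152 and -0.12 ± 0.155, the elongase ELOVL4 at -0.07 ± 0.11 and the peroxisomal thiolase ACAA1 at 0.09 ± 0.128. The remaining desaturase family members were at 0.08 ± 0.108 for FADS3 and 0.11 ± 0.132 for FADS6.

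In fish oil minus control 6 of these 9 genes were higher and 3 lower (median 0.12), and in microalgae minus control also 6 and 3 (median 0.02), with medians over all probe sets of 0.001 and 0.003. FADS6 was at 0.24 ± 0.152 and ELOVL2 at -0.21 ± 0.124 in fish oil minus control, and FADS3 was at -0.02 ± 0.123. In fish oil minus microalgae 6 were higher and 3 lower (median 0.10), where FADS1 was at -0.42. No member of the list had an unadjusted p under 0.05 in any diet comparison.

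Regulators of desaturase genes gave few differences. Of 16 listed, 9 were tested, and neither SREBF1 nor SREBF2 was found under its own symbol. PPARG, a fatty acid receptor, was at -0.34 ± 0.151 in microalgae minus control (SE; an unadjusted limma p of 0.0396) and at 0.39 ± 0.143 in fish oil minus microalgae (a p of 0.0149), both with an adjusted p near 1. All 9 were higher in fish oil than in control piglets (median 0.11), with RXRA at 0.21 ± 0.117. Among the lipid synthesis genes, ME1, which supplies reducing power for fatty acid synthesis, was at -0.37 ± 0.108 after maternal LPS (an unadjusted limma p of 0.00339 and an adjusted p of 0.479), and SCD, the stearoyl desaturase, at -0.31 ± 0.239. Cholesterol synthesis and uptake genes were lower in 10 of 11 cases after maternal LPS (median -0.19) and higher in 10 of 11 in microalgae minus control (median 0.27), each with no gene at an unadjusted p under 0.05.

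Genes that handle the products of the pathway were mostly lower after maternal LPS in the remodelling list and evenly split in the eicosanoid list. Over all probe sets 51.8% were higher there (median 0.007), and no gene of either list had an unadjusted limma p under 0.05 after maternal LPS. Of 18 acyl-CoA and phospholipid remodelling genes tested, 5 were higher and 13 lower after maternal LPS (median -0.12), and AGPAT2, an acyltransferase of phospholipid synthesis, was at 0.44 ± 0.155 in fish oil minus control (an unadjusted limma p of 0.0116, adjusted p near 1). Of 12 eicosanoid synthesis genes, 6 were higher and 6 lower after maternal LPS, with ALOX5AP, needed for leukotriene synthesis, at -0.43 ± 0.258 (SE) and PTGES, a prostaglandin E synthase, at 0.26 ± 0.233.

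In the RefSeq gene order of the Sscrofa11.1 assembly, FADS2 lies between FADS3 and FADS1, and FADS1 is followed by FEN1, TMEM258 and MYRF. Of 12 genes of this neighbourhood tested, 9 were higher and 3 lower after maternal LPS (median 0.05) and none had an unadjusted limma p under 0.05. FEN1, a flap endonuclease of DNA replication that neighbours FADS1, was at -0.01 ± 0.135 after maternal LPS. By diet it was at -0.44 ± 0.175 in microalgae minus control (SE; an unadjusted limma p of 0.0228) and at 0.41 ± 0.165 in fish oil minus microalgae (a p of 0.0246), with adjusted p near 1. FADS1 had the opposite sign in both comparisons, 0.38 and -0.42. TMEM258 was at -0.12 ± 0.195 and 0.22 ± 0.184, and MYRF, a transcription factor, at -0.07 ± 0.155 and -0.06 ± 0.146.

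**Figure D4:**
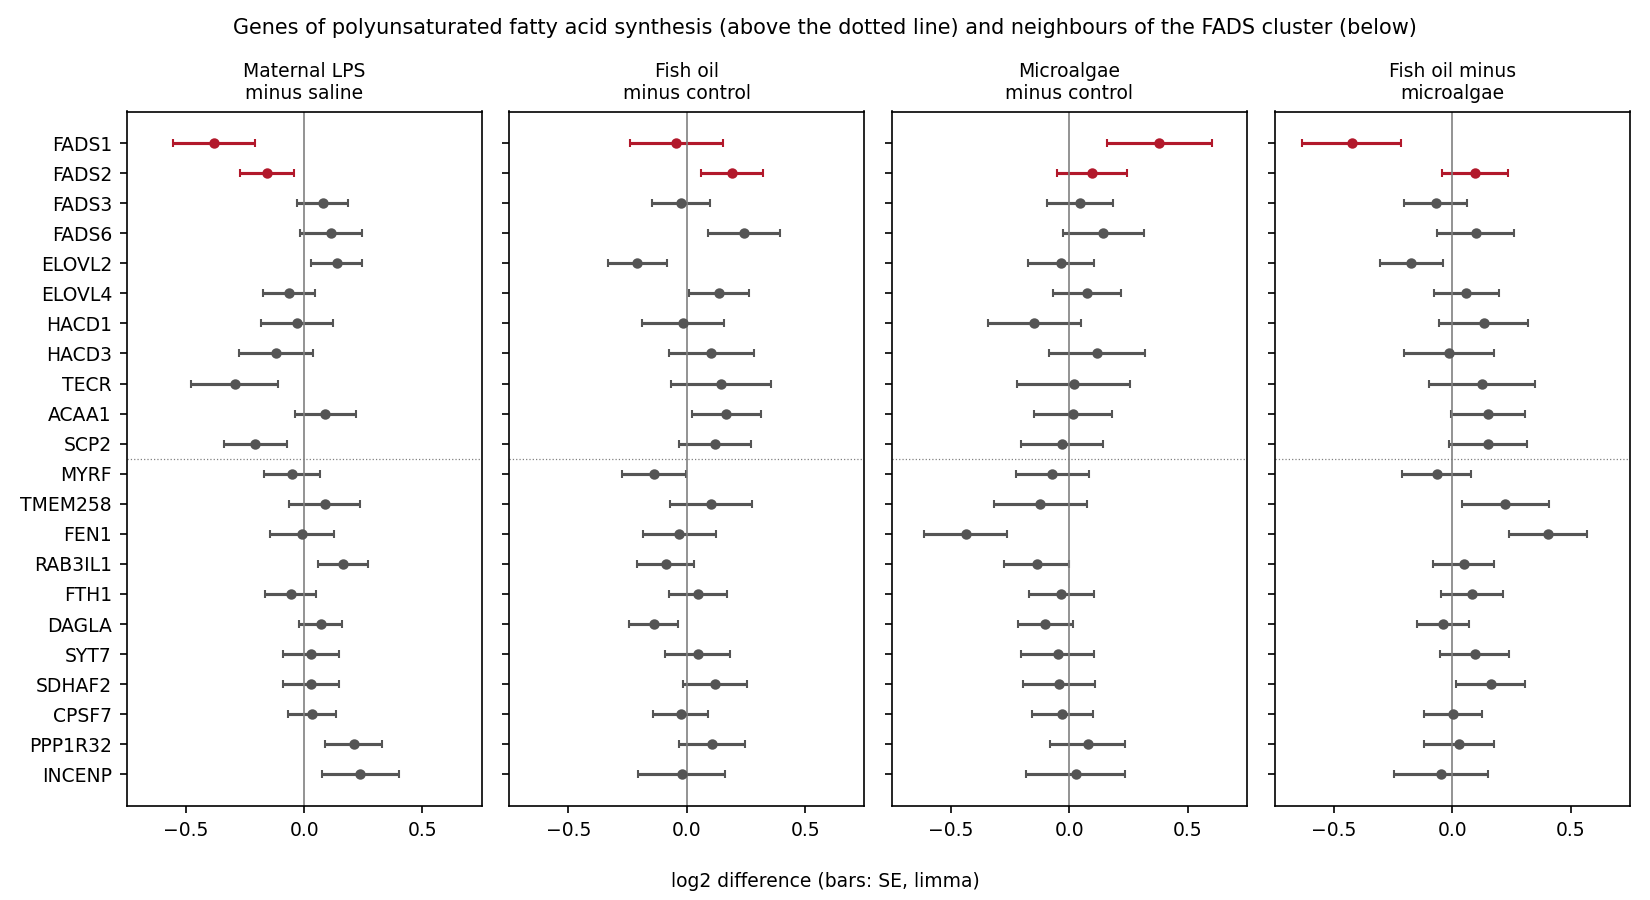
Log2 differences (points) with SE (bars, limma) for FADS1 and FADS2 (red) and for the other tested genes of polyunsaturated fatty acid synthesis and of the FADS neighbourhood (grey), in the maternal LPS comparison and the 3 diet comparisons. FADS1 lies at -0.38, -0.04, 0.38 and -0.42 from left to right, and FEN1 at -0.01, -0.03, -0.44 and 0.41.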

How the data were processed

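The deposited value table holds log2 signals for 27558 probe sets on 19 one-colour arrays of biotin-labelled cDNA, made by the authors with Transcriptome Analysis Console 4.0, per the submitters' processing notes. The background correction, summarization and normalization behind these log2 values are not given in the sources used here, and the log base was read from their range, 0.26 to 13.50. The array's control probe sets were not identified. The number of arrays limits the precision. Gene names came from the platform annotation, which gave 13157 probe sets 1 symbol, 523 several and 13878 none. 1239 probe sets repeat another's 19 values, and repeats were kept in the main test.

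Dim probe sets, those whose mean log2 signal was under 3.23, were left out (6890 of them, 25%) and 20668 tested. limma 3.58.1 in R 4.3.3 fitted 1 mean per group over all piglets, with a variance trend and Benjamini-Hochberg adjustment over the probe sets tested, checked on simulated data. Single values were tested by exact permutation within the levels of the other factor, and relations with 100000 resamples (Python 3.11.15, scipy 1.17.1). With 1 piglet per sow and 1 array per piglet, the tests rest on the spread between piglets.

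The members, gene lists and tests were chosen with earlier results of these data known. Named genes are both members, all measured genes of the synthesis and neighbourhood lists, up to 4 genes with the smallest p in each other list, and the 5 highest and 3 lowest in r with each member. Each symbol is represented by its probe set of highest mean. Alternatives changed the filter, normalization, variance trend, array weights, model, covariates and piglets. Those of the distance between the genes, of the relations, of the group and interaction comparisons and of repeated rows were chosen after seeing the data.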

Additional observations from a re-analysis of the deposited data

Results flagged for a closer look

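In groups of 4 piglets (the fish oil groups, the only ones large enough for this check), 5 of 46 gene and group combinations held 1 value whose gap to its nearest neighbour was over 0.829 of the group's range, Dixon's limit; chance gives about 1 in 20. None was FADS1, FADS2 or their difference. FADS6 in piglet 19 (maternal LPS) was at 5.9441 against 6.43 to 6.48 in the other piglets of its group. ACAA1 in piglet 13 (maternal saline) was at 5.7527 against 5.50 to 5.54, and SDHAF2 in the same piglet at 5.189 against 5.64 to 5.73. In piglet 24 (maternal LPS), whose array had the narrowest interquartile range, ELOVL4 was at 3.7048 against 3.36 to 3.41 and PPP1R32 at 4.9302 against 3.94 to 3.96.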

How the results depend on the processing

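No adjusted limma p for FADS1 or FADS2 passed 0.05 under any alternative run, and the signs of the maternal LPS, microalgae minus control and fish oil minus microalgae differences of each gene held in all of them. By the exact permutation test FADS1 after maternal LPS (-0.38) passed at p = 0.0371, without adjustment over probe sets. Leaving out 1 piglet gave -0.47 (without piglet 16) to -0.28 (without piglet 6) there, with 8 of 19 unadjusted p-values under 0.05. FADS1 in fish oil minus control ran from -0.20 to 0.092 in the same way, its distance to FADS2 after maternal LPS from -0.27 (without piglet 17, p = 0.0411) to -0.15, and r between the genes from 0.459 (without piglet 6, p = 0.0559) to 0.611, by permutation. That r was 0.419 without piglets 6 and 12, 0.447 without piglets 6 and 24. After quantile normalization the LPS difference of FADS2 in fish oil minus that in control became 0.078 and in microalgae minus control 0.044. The LPS difference of FADS1 in fish oil minus that in microalgae became -0.010 with array range and -0.016 with medulla score as covariate, where FADS2 became -0.029. FADS1 after LPS in control piglets became 0.022 without piglets 6 and 24. Leaving out single piglets gave FADS1 -0.56 to 0.022 and FADS2 -0.35 to 0.065 in control piglets after LPS. The diet dependence of the LPS difference then ran, for FADS1, from -0.40 to 0.19 (fish oil minus control), -0.50 to 0.083 (microalgae minus control) and -0.048 to 0.26 (fish oil minus microalgae), and for FADS2 from -0.20 to 0.21, -0.27 to 0.14 and -0.12 to 0.26. The 2 probe sets called for maternal LPS became 9 with array weights, 0 without the filter, with quantile normalization, the additive model, either covariate or without piglets 6 and 24, and 0 to 12 (12 without piglet 7) when 1 piglet was left out. The causes were not tested. No paired analysis was possible because the labels number piglets, and no number recurs across groups.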
